A study of Mus musculus with 12 samples.

Results

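Notch1, Notch2, Rbpj, Hes1, Dtx1, Nrarp, Gata3, Tcf7, Bcl11b and Cd7 are 10 genes of Notch signalling and of the first steps of T-cell specification. They were taken by symbol from the 23420 genes of the deposited mouse fetal liver table, and all 10 were found in it. Of these, Notch1, Notch2, Rbpj, Hes1 and Cd7 reached 10 or more in 3 or more of the 12 libraries and entered the test across 4542 genes. Notch2 did so through PIR+ libraries alone and Cd7 through the 3 PIR+ wild-type libraries alone, so the differences of Notch2 between subsets, and of Cd7 between subsets and between genotypes, follow in part from that filter. The same holds between subsets for other genes named below. Among them Aph1a, Dtx2, Runx2, Runx3, Mycn, Cd27, Id2 and Csf1r passed through PIR+ libraries alone, and Lef1, Blnk and Cd79a through PIR- libraries alone. Ltb passed through the PIR+ KO libraries alone, so its differences between subsets and between genotypes follow in part from the filter too. Nrarp, Gata3, Tcf7, Dtx1 and Bcl11b did not reach it and are described by their values in each library.

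The study sorted lineage-negative c-Kit+ fetal liver cells by the paired immunoglobulin-like receptor (PIR), a cell surface receptor encoded by the Pira genes and Lilrb3. Every tube held 100 cells and an equal dose of ERCC control RNA, and molecules were counted by a barcode on an oligo-dT primer. Both subsets were taken from wild-type and from KO mice, which gives 4 groups of 3 libraries. The labels call 6 libraries KO without naming the gene that was removed, give no strain, and leave unsaid whether a group's libraries came from separate embryos. The p-values here therefore measure the spread among libraries, which in the fits is partly pooled over genes and may be technical.

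The groups follow the sample titles. Pira2, Pira1 and Lilrb3 were above 0 in all 6 libraries titled PIR+ and at 0 in all 6 titled PIR-, whereas in 6 of the 12 the sign written under markers contradicts the title. Embryonic day, E12.5 or E14.5 in the source name, goes with that markers entry and not with the title. PIR+ wild-type replicates 1 and 2, PIR- wild-type replicates 2 and 3, PIR+ KO replicate 3 and PIR- KO replicate 1 are labelled E12.5, and the other 6 libraries E14.5. Kit and Il7r were above 0 in all 12 libraries. In 5 libraries (PIR+ wild-type replicate 3, PIR- wild-type replicates 2 and 3, PIR+ KO replicate 1 and PIR- KO replicate 1) the alpha-globin gene Hba-a1 was above 300, so these are called globin-rich. Library sums ran from 155374 to 284648 on the deposited scale, an estimated 208195 to 442533 molecules.

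Notch receptors are cleaved after they bind a ligand on a neighbouring cell, and the freed intracellular part joins the DNA-binding protein RBPJ to switch on targets such as Hes1, Dtx1 and Nrarp. In the thymus this signal drives early progenitors into the T lineage, and Tcf7, Gata3 and then Bcl11b are the transcription factors that carry T-cell specification and commitment. Fetal liver progenitors that seed the thymus have not yet met the dense Notch ligands of the thymic epithelium. CD7 is a surface protein of early T and natural killer lineage cells.

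RefSeq promoter windows on GRCm38.p6, reaching from 250 bases before to 50 bases after a start site, were matched by symbol for 8 of the 10 genes, in 10 windows (Cd7 and Hes1 had none). They were searched on both strands for TGGGAA, the core of the RBPJ site, for the longer GTGGGAA, for the RUNX motifs TGTGGT and TGCGGT, and for CACNAG, the N-box bound by HES proteins. Of 32851 windows of all genes, 25.6% hold TGGGAA, 6.38% GTGGGAA, 22.4% a RUNX motif and 42.5% CACNAG. Among the 8 genes, TGGGAA was found in 1 (Rbpj), the longer site and the RUNX motifs in 0, and CACNAG in 6. The window of Notch1 (chr2:26503773-26504072, minus strand) is shown because Notch1 is the receptor the results below turn on; capitals mark its 3 N-box matches, which begin 108, 3 and 1 bases before the start site, the last pair overlapping on opposite strands. The upstream window of Rbpj (chr5:53590096-53590395, plus strand) is shown as the one that holds the RBPJ core in both orientations; capitals mark matches beginning 149 and 65 bases before the start. Both windows lie inside the longer gene spans of GENCODE M21, and a match is a run of letters, not evidence of binding.
Notch1: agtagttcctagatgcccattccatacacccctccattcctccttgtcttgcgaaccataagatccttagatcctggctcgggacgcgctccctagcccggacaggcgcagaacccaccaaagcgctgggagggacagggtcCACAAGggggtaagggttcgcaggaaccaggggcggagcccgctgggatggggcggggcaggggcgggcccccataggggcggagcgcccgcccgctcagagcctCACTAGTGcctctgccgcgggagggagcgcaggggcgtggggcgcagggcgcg
Rbpj: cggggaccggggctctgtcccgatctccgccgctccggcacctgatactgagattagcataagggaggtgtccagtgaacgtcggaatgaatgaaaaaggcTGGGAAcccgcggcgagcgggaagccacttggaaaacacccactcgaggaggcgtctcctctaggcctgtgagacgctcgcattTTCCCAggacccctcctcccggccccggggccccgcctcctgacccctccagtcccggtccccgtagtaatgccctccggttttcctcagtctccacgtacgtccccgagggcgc

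Notch1, a receptor of early lymphoid progenitors, was higher in PIR+ than in PIR- cells of both genotypes. The gene (chromosome 2, 26457903 to 26516663, GRCm38) had deposited normalized molecule counts of 53.9, 49.3 and 71.2 in PIR+ wild-type libraries, against 13.3, 11.6 and 16.3 in their PIR- counterparts. In KO mice it stood at 53.9, 48.0 and 76.8 in PIR+ and at 28.6, 19.6 and 34.5 in PIR- cells. Every PIR+ library was thus above every PIR- library in both genotypes. The highest value of each PIR+ group was replicate 3, labelled E14.5 in wild type and E12.5 in KO. The ratio of group means was 4.23 in wild type and 2.16 in KO.

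The test was limma on log2(value + 1), with Benjamini-Hochberg adjustment over the 4542 genes, and a gene is said to rise or fall where its adjusted p is under 0.05. In wild type Notch1 rose in PIR+ cells by 2.00 ± 0.23 (log2, SE) with limma's adjusted p = 3.31e-12, and in KO by 1.09 ± 0.23 with adjusted p = 0.000111. On the deposited scale the median of all tested genes was 0.51 higher in PIR+ cells of wild type and 0.39 higher in KO. After median-of-ratios scaling, which sets that median near 0, the Notch1 differences were 1.51 (limma, adjusted p = 1.10e-07) and 0.70 (adjusted p = 0.00484). At this threshold 44.4% of the tested genes passed in wild type (40.6% as rises) and 25.5% in KO (22.5% as rises), and 22.6% and 15.6% passed after scaling. No overlap between PIR+ and PIR- libraries was seen for 52% of tested genes in wild type and 39.1% in KO. In these bulk samples, fewer cells that express a gene and less of its RNA per cell cannot be told apart.

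**Figure D1:**
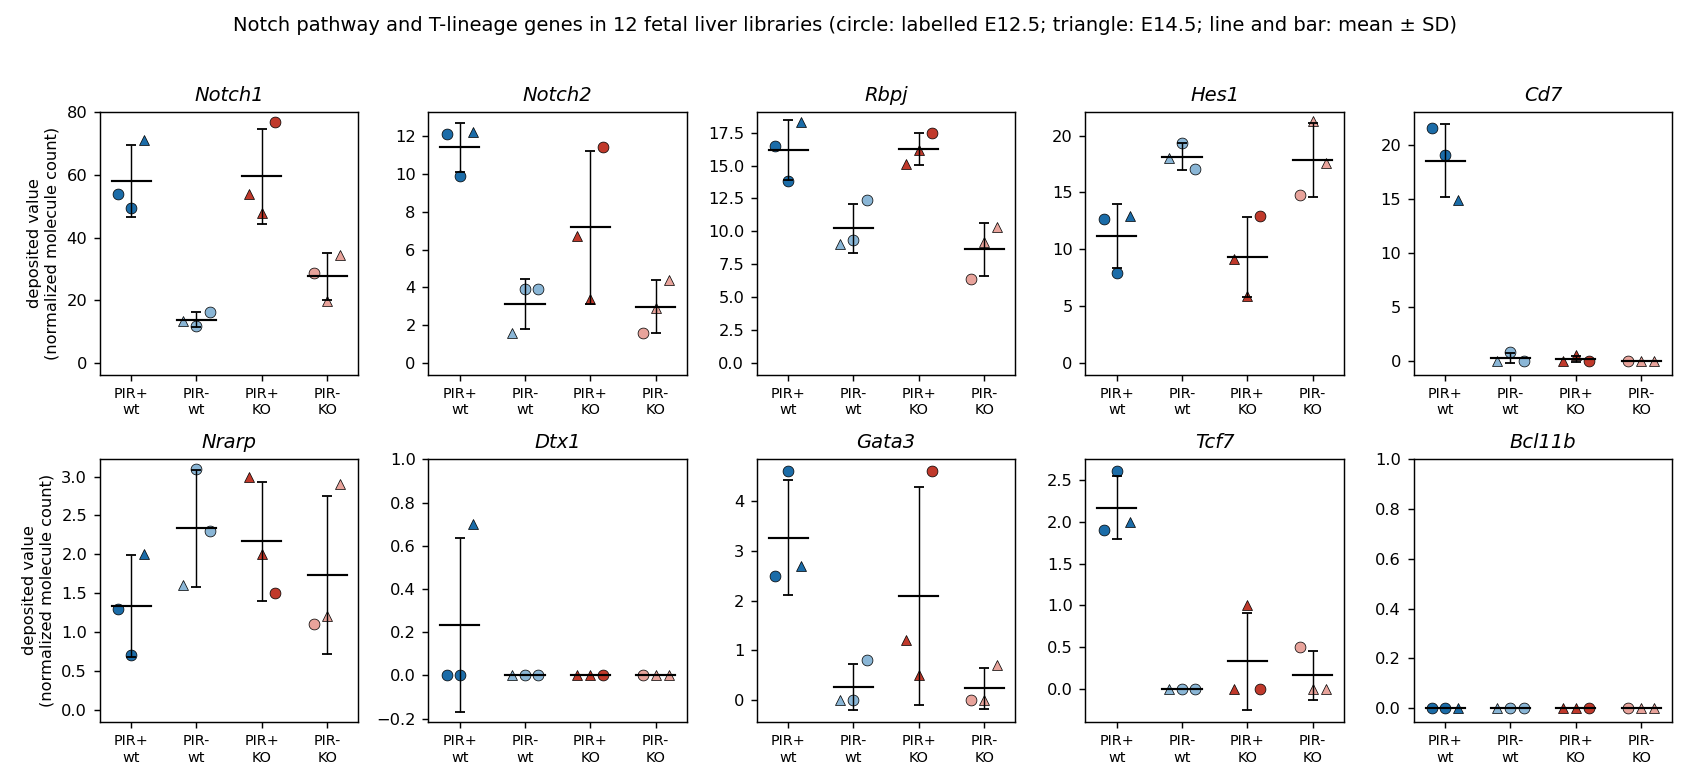
Deposited value of each of the 10 genes in the 12 libraries by group, with group mean ± SD (n = 3); circles are libraries labelled E12.5 and triangles E14.5, and each panel has its own linear axis. Notch1 and Rbpj are higher and Hes1 lower in PIR+ libraries of both genotypes without overlap, while Cd7 is at 14.9 to 21.6 in PIR+ wild type and at 0 to 0.8 in the other 9 libraries.

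Between genotypes, Notch1 passed the test in PIR- cells and not in PIR+ cells. In PIR- cells its mean was 27.6 ± 7.50 (SD, n = 3) in KO and 13.7 ± 2.38 in wild type, and the lowest KO library (19.6) was above the highest wild-type library (16.3). This rise was 0.93 ± 0.23 on the log2 scale (limma, adjusted p = 0.0115), and 0.74 after scaling (adjusted p = 0.0204); the median of all tested genes was 0.20 higher in KO on the deposited scale. Of all tested genes 1.3% passed here (1.7% after scaling), and 15.4% had no overlap. Notch1's call was lost without PIR- wild-type replicate 2 (adjusted p = 0.0892), without PIR- KO replicate 3 (0.207), with only the 6 PIR- libraries (0.161), with no filter on low genes (0.147), among libraries whose title and markers match (0.0759) and without the globin-rich libraries (0.241). In PIR+ cells the means were 59.6 ± 15.2 in KO and 58.1 ± 11.6 in wild type, a difference of 0.02 ± 0.23 (limma, adjusted p = 0.999). The test of the difference between the subsets' KO effects gave -0.91 ± 0.33 with limma's adjusted p = 0.404, so the KO effect on Notch1 was not shown to differ between PIR- and PIR+ cells.

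Markers of other lineages also differed between the PIR- groups. The summed value of 11 myeloid and mast cell markers ranged over 7.5 to 22.9 in wild-type and 31.1 to 61.3 in KO libraries of the PIR- subset, with 8 and 9 of them above 0, and with the granule protease genes Ctsg and Mcpt8 at 0 in all 12. PIR+ libraries of both genotypes held 94.4 to 164.8 of this sum. Of 12 erythroid and megakaryocyte markers, the 3 tested were lower in PIR- KO than in PIR- wild type on the deposited scale (Hba-a2 -2.55, limma, adjusted p = 0.0059; Beta-s -2.54, adjusted p = 0.0235; Hba-a1 -2.29, adjusted p = 0.0424), and 0 of the 3 passed after scaling. Summed over the list, PIR- libraries held 217.4 to 1897 (wild type) and 44.6 to 1824 (KO), with 9 of them above 0 in each. The part of these markers in the Notch1 values was not tested.

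Notch2, the second Notch receptor of blood progenitors (chromosome 3, 98013527 to 98150361), was lower in value throughout. PIR+ wild-type libraries held 12.1, 9.9 and 12.2, and PIR- wild-type libraries 1.6, 3.9 and 3.9. PIR+ KO libraries held 6.7, 3.4 and 11.4, and PIR- KO libraries 1.6, 2.9 and 4.4. The wild-type subsets did not overlap, whereas in KO replicate 2 of PIR+ lay within the PIR- range. Notch2 rose in PIR+ wild-type cells by 1.64 ± 0.41 (limma, adjusted p = 0.000852; 1.22 after scaling, adjusted p = 0.0182). In KO the difference was 0.98 ± 0.41 (limma, adjusted p = 0.0642; 0.66 after scaling, adjusted p = 0.278), and leaving out PIR+ KO replicate 2 gave an adjusted p of 0.0176. Notch2 did not differ beyond the spread between genotypes, at -0.72 ± 0.41 in PIR+ cells (limma, adjusted p = 0.809).

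The remaining receptors and the ligands were nearly absent. Dll1, Dll3, Dll4, Jag1, Jag2, Notch3 and Notch4 summed to between 0 and 4.1 per library and none entered the test, and Dll3 and Jag2 were at 0 in all 12.

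Rbpj, the DNA-binding partner of every Notch receptor (chromosome 5, 53466152 to 53657362), followed the bulk of genes more closely. It stood at 16.5, 13.8 and 18.3 in PIR+ and at 9.0, 9.3 and 12.4 in PIR- wild-type libraries, and at 15.1, 16.2 and 17.5 in PIR+ and 6.4, 9.2 and 10.3 in PIR- KO libraries. No PIR+ library overlapped a PIR- library of its genotype. The difference was 0.62 ± 0.29 in wild type (limma, adjusted p = 0.0718) and 0.86 ± 0.29 in KO (adjusted p = 0.0203), so Rbpj passed in KO and not in wild type; the difference of these differences, 0.24 ± 0.41, did not pass (adjusted p = 0.982). After scaling the values were 0.14 (limma, adjusted p = 0.722) and 0.49 (adjusted p = 0.159). Leaving out PIR+ KO replicate 3 or PIR- KO replicate 1 ended the KO call as well (adjusted p = 0.0749 and 0.135), as did keeping only libraries whose title and markers match (0.172) or dropping the globin-rich ones (0.193), while the wild-type difference passed without PIR- wild-type replicate 3 (0.047). KO and wild type differed by 0.01 in PIR+ cells and by -0.23 in PIR- cells, neither past the threshold.

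Hes1, a transcriptional repressor and a direct target of Notch signalling (chromosome 16, 30064384 to 30067796), ran opposite to Notch1. PIR+ libraries held 12.7, 7.9 and 12.9 in wild type and 9.1, 5.9 and 12.9 in KO. PIR- libraries held 18.0, 19.4 and 17.1 in wild type and 14.8, 21.3 and 17.6 in KO. All 6 PIR+ values were below all 6 PIR- values. In wild type Hes1 fell by 0.68 on the log2 scale (SE 0.29, limma, adjusted p = 0.0457), and in KO it fell by 0.92 (SE 0.29, adjusted p = 0.0121). After scaling the falls were larger, -1.17 (limma, adjusted p = 0.000724) and -1.29 (adjusted p = 0.000323). A fall in PIR+ cells was called for 3.72% of tested genes in wild type and 2.97% in KO, against 11% and 7.51% after scaling.

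The wild-type call for Hes1 on the deposited scale was close to the threshold. It was lost without PIR+ wild-type replicate 2 (limma, adjusted p = 0.235) or 3 (0.0539), without PIR- wild-type replicate 1 (0.0936), 2 (0.114) or 3 (0.0535), without PIR- KO replicate 2 (0.0534) and when the globin-rich libraries were dropped (0.22). It was also lost with a filter of at least 3 (0.0592), with no filter (0.0931), with embryonic day as a term (0.0505) and among libraries whose title and markers match (0.139). The KO call was lost without PIR+ KO replicate 2 (0.0987) or PIR- KO replicate 2 (0.0808) and among the libraries with matching labels (0.308). Hes1 did not differ beyond the spread between genotypes, at -0.27 in PIR+ cells (limma, adjusted p = 0.953) and -0.03 in PIR- cells. The 11 B-lineage markers had sums of 864.3 to 1159 (wild type) and 735.6 to 1159 (KO) in PIR- libraries, against 25 to 42.5 and 16.2 to 27.5 in PIR+ libraries, with 8 to 10 of them above 0 in each group. Their part in the Hes1 values was not tested.

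The ratio of Notch1 to Hes1 within a library is free of the library's scale. In wild type it was 4.24, 6.24 and 5.52 for PIR+ and 0.739, 0.598 and 0.953 for PIR- libraries, and in KO 5.92, 8.14 and 5.95 for PIR+ and 1.93, 0.92 and 1.96 for PIR- libraries. Every PIR+ library exceeded every PIR- library. The mean log2 ratio was 2.47 higher in PIR+ cells. An exact two-sided permutation test within genotype gave p = 0.005, the smallest that its 400 arrangements allow. Both genes already separated all PIR+ from all PIR- libraries in opposite directions, so this p was fixed before the test. It adds no support beyond the values of Notch1 and Hes1 themselves. Among the 6 libraries with matching title and markers the difference was 2.47 (exact permutation p = 0.111), and without the globin-rich libraries it was 2.59 (exact p = 0.0556). Between genotypes the log2 ratio was 1.02 higher in PIR- KO than in PIR- wild type (exact p = 0.2) and 0.324 higher in PIR+ KO than in PIR+ wild type (exact p = 0.3), where 3 libraries against 3 cannot go below 0.1. The 5 exact tests of this ratio were run after the values of both genes were known and are not adjusted for one another.

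**Figure D2:**
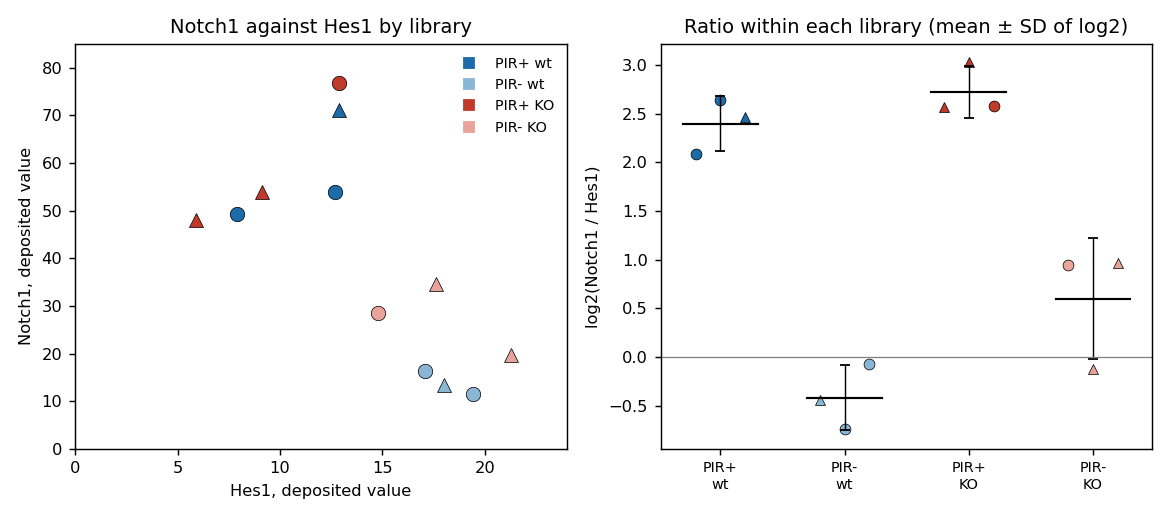
Left, deposited Notch1 against Hes1 value in each library, coloured by group; right, log2 of their ratio with group mean ± SD (n = 3), circles for labelled E12.5 and triangles for E14.5. PIR+ libraries lie at high Notch1 and low Hes1, with ratios of 4.24 to 8.14, against 0.598 to 1.96 in PIR- libraries.

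The other direct Notch targets among the 10 genes were at the edge of detection. Nrarp, a feedback inhibitor of Notch signalling (chromosome 2, 25180758 to 25183339), was at 1.3, 0.7 and 2.0 in PIR+ wild type and 1.6, 3.1 and 2.3 in PIR- wild type. It was at 3.0, 2.0 and 1.5 in PIR+ KO and 1.1, 1.2 and 2.9 in PIR- KO. The groups overlapped in both genotypes, and the mean PIR+ minus PIR- difference was -0.28 (exact permutation within genotype, p = 0.6). Dtx1, which encodes a ubiquitin ligase induced by Notch (chromosome 5, 120680202 to 120711927), was at 0.7 in PIR+ wild-type replicate 3 and at 0 in the other 11 libraries. At an estimated 1 molecule, no difference in Dtx1 was detectable at this depth.

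Gata3, a zinc-finger factor needed from the first stages of T-cell development (chromosome 2, 9857078 to 9890034), was low but mostly found in PIR+ cells. It was at 2.5, 4.6 and 2.7 in PIR+ wild type and at 0, 0 and 0.8 in PIR- wild type, an estimated 15 molecules against 1. The ratio of rates was 14.7 (95% counting interval 2.25 to 617, which covers counting error only). In KO it was at 1.2, 0.5 and 4.6 in PIR+ and at 0, 0 and 0.7 in PIR- cells, where replicate 2 of PIR+ lay inside the PIR- range and replicate 3, labelled E12.5, equalled the highest wild-type library. The 3 PIR+ libraries labelled E12.5 held 2.5 to 4.6 and those labelled E14.5 held 0.5 to 2.7. Over both genotypes Gata3 was 2.43 higher in PIR+ libraries (exact permutation within genotype, p = 0.01, unadjusted). Fitted with no filter over 14177 genes, of which 16.1% passed in wild type and 8.7% in KO, Gata3 rose in wild type by 1.78 ± 0.46 (limma, adjusted p = 0.0114). In KO the same fit gave 1.15 ± 0.46 (adjusted p = 0.134), and KO against wild type in PIR+ cells gave -0.66 ± 0.46 (adjusted p = 0.824).

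Tcf7, the HMG-box factor that Notch switches on at the start of T-cell specification (chromosome 11, 52252371 to 52283014), was found in every PIR+ wild-type library. Its values were 1.9, 2.6 and 2.0 there, an estimated 10 molecules, and 0 in all 3 PIR- wild-type libraries, so it was at least 3.26-fold higher against a floor of 3 molecules over the group. PIR+ KO libraries held 0, 1.0 and 0, and PIR- KO libraries 0.5, 0 and 0. The PIR+ wild-type libraries did not overlap any other group. Over both genotypes Tcf7 was 1.17 higher in PIR+ libraries (exact two-sided permutation within genotype, p = 0.05, unadjusted), and p was 0.08 without PIR+ KO replicate 2. The PIR+ and PIR- means were 2.17 and 0 in wild type but 0.33 and 0.17 in KO. With no filter, Tcf7 rose in PIR+ cells of wild type by 1.66 ± 0.31 (limma, adjusted p = 0.0008; 1.54 and adjusted p = 0.00212 after scaling). In KO the same fit gave 0.14 ± 0.31 (limma, adjusted p = 0.852). KO against wild type in PIR+ cells gave -1.32 ± 0.31 (limma, adjusted p = 0.0654), which misses the threshold. This fit called 0.367% of its genes in that comparison. The ratio of rates there was 5.48 in favour of wild type (95% counting interval 1.17 to 51.5). That interval covers counting error only and leaves out the spread among libraries, so it does not make up for the missed call. Bcl11b, the factor of T-lineage commitment (chromosome 12, 107910403 to 108003602), was at 0 in all 12 libraries.

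Cd7 (chromosome 11, 121036747 to 121039418) was the one of the 5 tested members that passed the test between genotypes in PIR+ cells. It stood at 21.6, 19.1 and 14.9 in the PIR+ wild-type libraries, an estimated 34, 29 and 22 molecules. In PIR- wild type it was at 0, 0.8 and 0, in PIR+ KO at 0, 0.5 and 0, and in PIR- KO at 0 in all 3. PIR+ wild type therefore overlapped no other group, and the other 3 groups could not be told from one another at 1 molecule or fewer in a group. Within the libraries labelled E12.5, PIR+ cells held 21.6 and 19.1 in wild type and 0 in KO, and within E14.5 they held 14.9 in wild type and 0 and 0.5 in KO. The ratio of rates in PIR+ cells was 93.2 in favour of wild type (95% counting interval 16.3 to 3723), and within wild type it was 83 in favour of PIR+ (14.51 to 3318). These intervals cover counting error only.

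In the fit, Cd7 rose by 3.99 ± 0.64 in PIR+ against PIR- cells of wild type (limma, adjusted p = 2.20e-07). KO against wild type in PIR+ cells gave -4.08 ± 0.64 (limma, adjusted p = 2.61e-06; -3.92 and adjusted p = 7.60e-05 after scaling), and over all alternatives the adjusted p ran from 7.71e-18 to 0.00101. Only 0.903% of tested genes passed in this comparison (1.01% after scaling, 0.462% as falls), and 3.04% had every KO library below every wild-type library. The KO effect on Cd7 differed between PIR+ and PIR- cells by -3.80 ± 0.90 (limma, adjusted p = 0.0136, where 0.572% of genes passed, and 0.749% after scaling). That call was lost with a pseudocount of 0.5 (adjusted p = 0.196), without PIR+ wild-type replicate 1 (0.0944) or 2 (0.0644) among libraries whose title and markers match (0.229) and without the globin-rich libraries (0.198). Cd7 was already near 0 in PIR- wild-type cells and had no room to fall there. The difference of KO effects therefore repeats its fall in PIR+ cells and does not show a KO effect particular to that subset. Fitted folds of a gene near 0 depend on the added 1. The authors' deposited table lists a p-value of 4.48e-08 for Cd7 between the wild-type subsets and of 3.12e-13 between PIR+ wild type and PIR+ KO. For Notch1 it lists 1.10e-07 and 0.706.

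**Figure D3:**
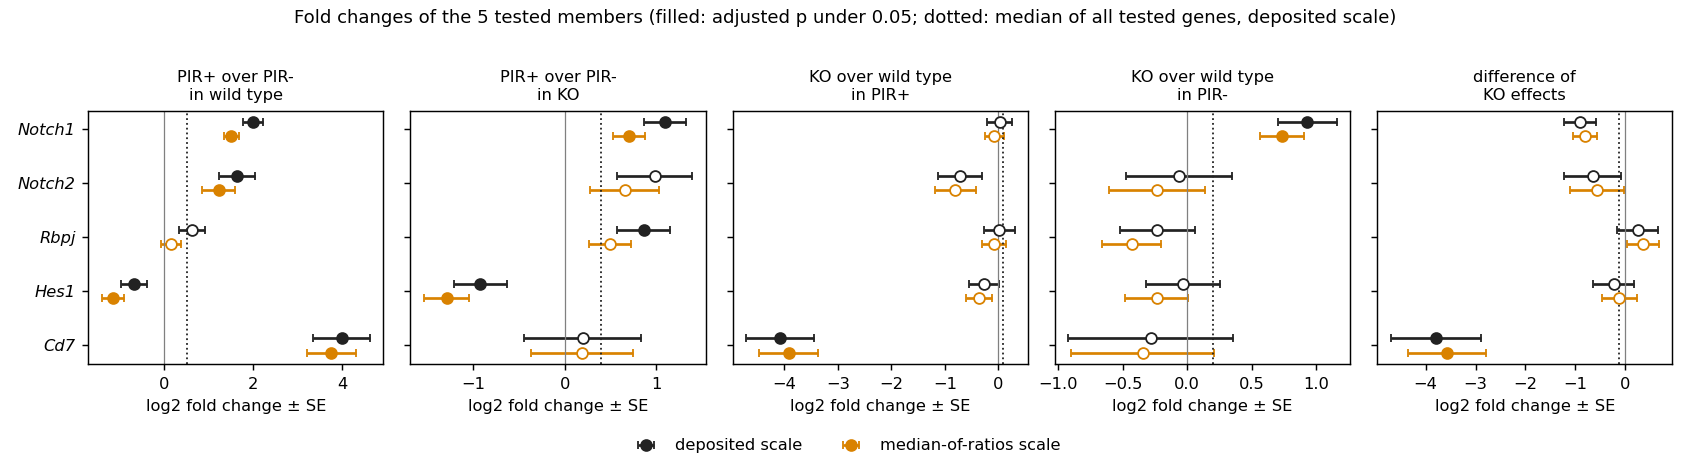
Log2 fold change ± SE of the 5 tested members in the 4 comparisons and in the difference of KO effects, on the deposited and the median-of-ratios scale; filled points have an adjusted p under 0.05 (limma) and the dotted line is the median of all 4542 genes on the deposited scale. Notch1 lies right of that median and Hes1 left of it in both subset comparisons, and Cd7 is at -4.08 in KO against wild type in PIR+ cells.

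Of the natural killer and innate lymphoid markers, 3 were tested, and 1 (Id2) was called between genotypes in PIR+ cells. The 20 markers had overlapping sums, 136.5 to 201.9 in wild-type and 87.7 to 141.4 in KO libraries of the PIR+ subset, with 13 and 11 above 0, and with Tbx21, Ncr1, Gzma, Gzmb, Cxcr6 and Rora at 0 in all 12. Id2, an inhibitor of E proteins in that list, held 38.1, 73.0 and 51.5 in the wild-type and 17.0, 15.2 and 28.1 in the KO libraries of that subset. It fell in KO by 1.39 on the log2 scale (limma, adjusted p = 0.0482), a call lost under 14 of 23 alternatives. Ltb, which encodes lymphotoxin beta, was at 8.9, 5.9 and 9.5 in wild type and 13.9, 12.7 and 14.4 in KO (0.71 ± 0.39, adjusted p = 0.797). Of the 21 T-cell receptor and surface genes, 14 (wild type) and 11 (KO) were above 0 in the PIR+ subset, with sums of 120.5 to 144.8 and 104.8 to 138.4. Cd93, Cd44 and Cd27 made up most of each sum. Cd93 alone was at 50.1, 53.9 and 54.9 in wild-type and 59.4, 51.9 and 71.5 in KO libraries of that subset. The sums therefore say little about the other genes of the list. Among the 21 genes Cd3d, Cd3e, Cd8a and Thy1 were at 0 in all 12 libraries, and Cd3g was at 0.7 in 1 PIR+ wild-type library. The kinase gene Lck was at 7.0, 11.8 and 8.1 in PIR+ wild-type libraries and at 1.8, 1.0 and 1.5 in their KO counterparts. The part of these markers in the Cd7 values was not tested.

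Genes that make and process the receptors are read here beside all tested genes, of which 40.6% rose in PIR+ cells of wild type and 22.5% in KO. Of 15 genes for receptor maturation and cleavage, 5 entered the test, and in PIR+ against PIR- cells all 5 rose in wild type and 1 in KO, with 0 falling. After scaling 1 rose in each genotype, where 22.6% of all tested genes in wild type and 15.6% in KO were called in either direction. Mfng, a fringe glycosyltransferase that changes which ligands a Notch receptor answers, averaged 25.4 in PIR+ and 13.7 in PIR- wild type and 37.1 and 17.8 in KO (0.87 ± 0.25, limma, adjusted p = 0.00403 in wild type; 1.01 ± 0.25, adjusted p = 0.00135 in KO). Aph1a, a gamma-secretase subunit, rose by 1.34 ± 0.37 in wild type (adjusted p = 0.00243). The median of the 5 was 0.81 in wild type and 0.53 in KO, beside 0.51 and 0.39 for all genes.

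Of 15 trafficking and turnover genes, 4 were tested. In PIR+ cells 2 rose in wild type and 1 in KO, and after scaling 0 did in either. Rises among all tested genes were 40.6% and 22.5% on the deposited scale. After scaling 22.6% and 15.6% of them were called in either direction. Dtx3l, a Deltex family ubiquitin ligase, rose in both genotypes on the deposited scale (0.75 ± 0.30, limma, adjusted p = 0.0331 in wild type; 1.05 ± 0.30, adjusted p = 0.00485 in KO) and passed in neither after scaling (adjusted p = 0.497 and 0.0734). Dtx2 rose in wild type (1.29 ± 0.37, limma, adjusted p = 0.00366); its difference in KO was 0.56 ± 0.37 (adjusted p = 0.246), and the 2 differences were not shown to differ (-0.73 ± 0.53, adjusted p = 0.964).

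Nuclear cofactors of RBPJ, both activators and repressors, gave 14 tested genes of 22. In PIR+ cells 6 rose in wild type and 5 in KO with 0 falling, and after scaling 1 and 3 rose. Among all tested genes 40.6% and 22.5% rose on the deposited scale, and 22.6% and 15.6% were called in either direction after scaling. Aes (Tle5), a Groucho family member, had means of 56.6 and 25.4 in wild type (1.14 ± 0.22, limma, adjusted p = 1.37e-05). Ctbp2, a corepressor, had means of 22.7 in PIR+ and 5.27 in PIR- KO cells (1.99 ± 0.31, adjusted p = 1.48e-07). The list medians were 0.60 and 0.42, again beside 0.51 and 0.39 for all genes. Between genotypes none of these 3 lists had a called gene in either subset on the deposited scale, and after scaling Ctbp2 was lower in PIR- KO cells (-1.14, adjusted p = 0.0314).

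Other genes known as Notch targets split by direction. Of 12, 4 entered the test. In PIR+ cells 2 rose and 1 fell in wild type, and 1 rose and 1 fell in KO. Among all tested genes 40.6% rose and 3.72% fell in wild type, and 22.5% rose and 2.97% fell in KO. Myc was not called in either genotype, at 41.2, 39.5 and 46.8 in PIR+ and 30.7, 36.4 and 32.6 in PIR- wild type. Ccnd1, which encodes cyclin D1, was at 51.4, 65.1 and 66.4 in PIR+ and 4.8, 3.1 and 7.8 in PIR- wild type, a rise of 3.38 ± 0.25 (limma, adjusted p = 1.79e-22). It was at 75.1, 74.4 and 106.5 in PIR+ and 11.7, 17.3 and 16.9 in PIR- KO, and like Notch1 it was higher in PIR- KO than in PIR- wild type (1.44 ± 0.25, adjusted p = 2.58e-05). Id3, which like Id2 encodes an E-protein inhibitor, moved the other way: its means were 14.4 in PIR+ and 75.2 in PIR- wild type (-2.40 ± 0.25, adjusted p = 1.11e-13), and 26.5 and 67.9 in KO (-1.47 ± 0.25, adjusted p = 2.25e-06). Hes6 rose in wild type by 0.87 ± 0.27 (adjusted p = 0.00635), a call lost after scaling (adjusted p = 0.235).

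T-lineage transcription factors beyond the 10 genes did not move as one group. Of 22, 12 entered the test; in PIR+ cells 5 rose and 4 fell in wild type, and 4 rose and 4 fell in KO. Of all tested genes 40.6% rose and 3.72% fell in wild type, and 22.5% rose and 2.97% fell in KO. After scaling 4 rose and 5 fell in wild type, and 1 rose and 4 fell in KO. Among all tested genes after scaling, 22.6% in wild type and 15.6% in KO were called in either direction, and 11% and 7.51% fell. Runx3, a Runt domain factor of cytotoxic T and natural killer cells, averaged 12.9 in PIR+ and 3.47 in PIR- wild type (1.70 ± 0.35, limma, adjusted p = 4.62e-05), and its relative Runx2 11.9 and 1.3 (2.44 ± 0.40, adjusted p = 4.51e-07). Lef1, a relative of Tcf7, was high in PIR- cells: it was at 0, 1.3 and 0 in PIR+ and 41.3, 42.6 and 50.4 in PIR- wild type, and 0 in all 3 PIR+ and 33.4, 43.2 and 61.7 in PIR- KO. Ets1, an ETS factor of lymphocytes, averaged 13.8 in PIR+ and 45.2 in PIR- wild type (-1.63 ± 0.25, adjusted p = 1.12e-07). Lef1 and Ets1 are also expressed by B-cell progenitors, whose markers were high in the same PIR- libraries; their part in these values was not tested.

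Cbfb, which encodes the non-DNA-binding partner of the RUNX proteins, was the T-lineage factor of this list called between genotypes on the deposited scale. After scaling Ets1 was also lower in PIR+ KO cells (-0.88, limma, adjusted p = 0.014; -0.80 and adjusted p = 0.161 on the deposited scale). The wild-type values of Cbfb were 55.8, 44.1 and 50.8 in PIR+ and 36.0, 34.1 and 33.4 in PIR- libraries. In KO it stood at 12.1, 15.7 and 16.0 in PIR+ and at 6.4, 14.4 and 18.4 in PIR- cells. All 6 KO libraries were below all 6 wild-type libraries. Cbfb fell by 1.72 in PIR+ KO cells (SE 0.25, limma, adjusted p = 6.65e-07) and fell by 1.45 in PIR- KO cells (SE 0.25, adjusted p = 3.79e-05). Which gene the KO label refers to is not stated.

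Stem and progenitor factors that T-cell commitment silences were mostly higher in PIR+ cells. Of 13, 8 entered the test. In PIR+ cells 6 rose in wild type and 7 in KO with 0 falling, and 5 and 6 rose after scaling. Among all tested genes 40.6% rose in wild type and 22.5% in KO, and 22.6% and 15.6% were called in either direction after scaling. Mycn was at 33.0, 27.6 and 35.9 in PIR+ and 0, 2.3 and 2.3 in PIR- wild type (3.90 ± 0.35, limma, adjusted p = 2.35e-17). Sfpi1, which encodes the myeloid and lymphoid progenitor factor PU.1, was at 45.7, 55.2 and 54.9 against 9.0, 7.7 and 10.1. Mef2c was the one gene of this list called between genotypes, higher in PIR- KO (means 59.1 and 32.7, 0.84 ± 0.20, adjusted p = 0.00549), a call lost without the globin-rich libraries (0.289), without PIR- KO replicate 2 (0.0525) and among libraries whose title and markers match (0.104).

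Among 21 T-cell receptor and surface genes, Cd27, Cd44 and Cd93 entered the test and rose in PIR+ cells of both genotypes and on both scales. Rises were called for 40.6% of all tested genes in wild type and 22.5% in KO on the deposited scale. After scaling 22.6% and 15.6% were called in either direction. Cd27, a costimulatory receptor, had means of 36.0 and 2.37 in wild type (3.46 ± 0.31, limma, adjusted p = 5.29e-17) and 22.6 and 4.9 in KO (1.99 ± 0.31, adjusted p = 2.41e-07). Cd44, an adhesion receptor of early thymic progenitors, rose by 1.80 ± 0.28 and 1.12 ± 0.28 (adjusted p = 7.19e-08 and 0.00117).

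**Figure D4:**
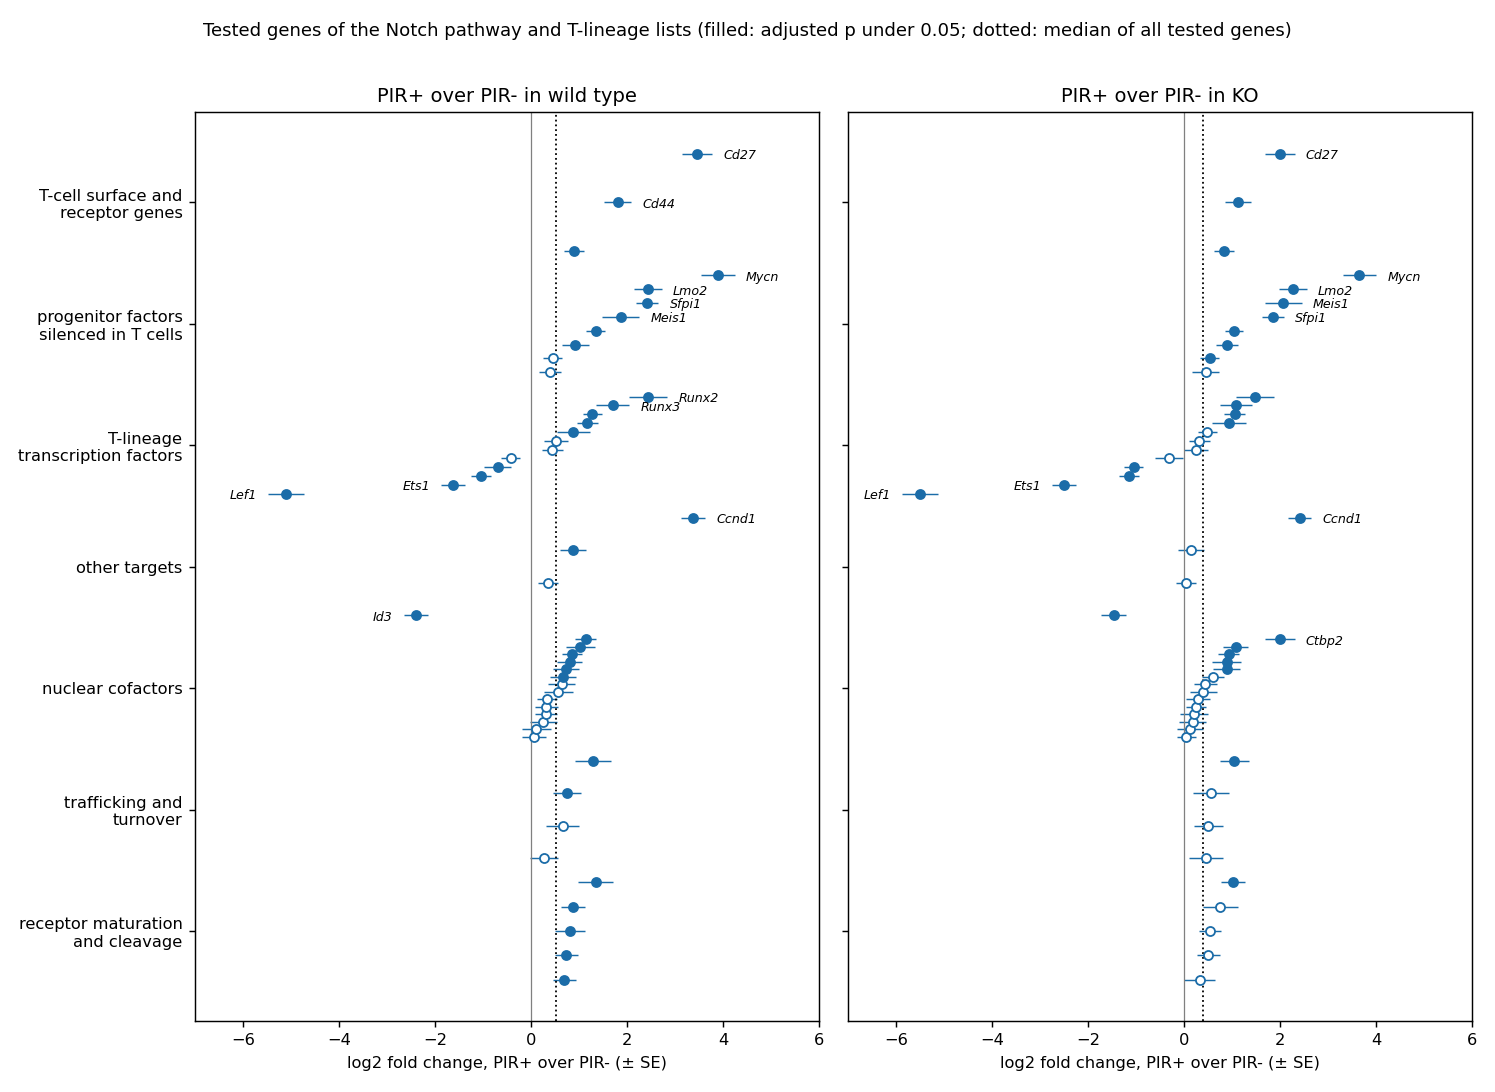
Log2 fold change ± SE of PIR+ over PIR- cells for every tested gene of 7 Notch and T-lineage lists, in wild type (left) and KO (right); filled points have an adjusted p under 0.05 (limma), genes beyond 1.6 are named, and the dotted line is the median of all tested genes. Most cofactor and maturation genes lie near that median, while Ccnd1, Mycn, Runx2 and Cd27 lie to its right and Lef1, Ets1 and Id3 to its left.

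Genes with the most similar profile over the 12 libraries were found by Pearson's r of log2(value + 1), a description in which all points share library scale and the contrast between subsets. For Notch1 they were B2m (r = 0.987), Clta (0.981) and Mn1 (0.975), and after scaling these were 0.95, 0.885 and 0.969. Notch2 was closest to Bcl9 (0.955, 0.756 after scaling), Bckdk (0.936, 0.883) and Abr (0.935, 0.871). Rbpj was closest to Cct2 (0.954, 0.835), Rgs10 (0.945, 0.705) and Gatad2a (0.939, 0.806), all weaker once scaled. Among the genes closest to Hes1 were S1pr4 (0.906, 0.948) and Blnk (0.894, 0.957), the last an adaptor of B-cell receptor signalling that was at 31.2 to 62.5 in PIR- and 0 to 3.2 in PIR+ libraries. For Cd7 they were Gsn (0.876, 0.886), Tspan15 (0.872, 0.87) and Napsa (0.863, 0.86).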

How the data were processed

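Groups were taken from the sample titles, 3 libraries each. The deposited values, treated as a signal, are barcode-based molecule counts after the authors' normalization, with 1 decimal. Per the submitters' processing notes the tools were TopHat2 and DESeq2 and the build mm10; which versions, counter and filters were used is not given in the sources used here. Because 93.0% to 94.2% of values under 15 in a library lie within 0.055 of a multiple of 1 step, estimated molecules are rounded values, not recovered counts. No count model was run apart from the counting intervals described below. The authors also deposited p-values for 2 comparisons, whose header does not say whether they are adjusted.

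Fits used limma 3.58.1 in R 4.3.3 (trended prior, values as log2(value + 1)), with 4 group means over all 12 libraries, on genes at 10 or more in 3 or more libraries (4542 of 14177 above 0). The prior pools the spread over genes, so the SE and p of a gene depend in part on which genes the filter keeps. For Cd7 between the wild-type subsets the SE was 0.64 in the main fit and 0.41 with no filter, at the same fold. The p-values were adjusted by Benjamini-Hochberg within each comparison over all tested genes. Fold changes are on the log2(value + 1) scale and understate changes of low genes. Members below the filter were tested by exact two-sided permutation within genotype and in a fit with no filter, alternatives chosen after their values were seen. The script was tested on simulated data. Intervals are exact (Clopper-Pearson) at 95% for a ratio of estimated molecules, pooled over the libraries of a group. They leave out the spread among libraries, and PCR copies are removed only as far as the barcodes allow.

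Alternatives were scaling, pseudocounts of 0.5 and 5, other filters, only the groups compared, a day term, a replicate block, only libraries with matching title and markers, no globin-rich libraries, and leaving out each library. The genes and lists were chosen with earlier results of these data known. All 10 members are named, and from each other list up to 2 called genes a direction with the largest fold change in each comparison. Myc, Sfpi1 and genes given as at 0 fall outside that rule and were chosen after their values were seen. A few genes that met a rule are not reported here. Of 210 list genes, Aes, Sfpi1 and Beta-s were matched by RefSeq synonym and 1 was unmatched. Figures used matplotlib 3.10.9.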

Additional observations from a re-analysis of the deposited data

Results flagged for a closer look

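The KO effect differed between PIR+ and PIR- cells, by the test of that difference (limma), for 5 of the genes named here; each value is the log2 effect in PIR+ minus that in PIR- cells. For Cd7 it was -3.8, with all 3 PIR+ wild-type libraries above every other library. For the B-cell receptor component Cd79a it was -2.09, for the macrophage colony-stimulating factor receptor gene Csf1r -1.89, and for Mpo, which encodes myeloperoxidase, -1.95. For Beta-s (Hbb-bs), an adult beta-globin gene, it was 3.59. Beta-s varied widely within every group: its ranges were 5.1 to 531.5 in PIR+ wild type, 77.4 to 793.3 in PIR- wild type, 14 to 298.9 in PIR+ KO and 14.6 to 820.2 in PIR- KO. The calls for Beta-s and Csf1r were lost under 11 and 16 of 22 alternatives, those for Cd7, Cd79a and Mpo under 5, 3 and 4.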

How the results depend on the processing

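The number of genes called depended on the setting. For PIR+ against PIR- in wild type it was 2015, and 1025 after median-of-ratios scaling, 1286 with scaling and no filter, 1053 with only the libraries whose title and markers match, 700 without the globin-rich libraries, and 1320 to 2083 when each library was left out (1320 without PIR+ wild-type replicate 3). In KO it was 1158, and 710 after scaling, 576 without the globin-rich libraries and 662 to 1418 leaving out each library (662 when PIR+ KO replicate 3 and 720 when PIR- KO replicate 1 was left out). For KO against wild type in PIR+ cells it was 41, and 27 without the globin-rich libraries (28 to 46 leaving out each). In PIR- cells it was 59, and 31 with no filter, 39 with scaling and no filter, 28 with only the 2 groups compared, 105 with libraries whose markers match, 35 without the globin-rich ones and 33 to 88 leaving out each (37 and 33 without PIR- KO replicates 2 and 3). For the difference of KO effects it was 26, and 3 with no filter, 8 with scaling and no filter, 10 with libraries whose markers match, 6 without the globin-rich ones and 15 to 33 leaving out each (15 without PIR+ wild-type replicate 2).

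Of the 10 members 5 were tested. Between subsets 4 were called in wild type (3 to 4 leaving out each library). In KO 3 were called (fewer with libraries whose markers match, 2 to 4 leaving out each). The share over all tested genes was 44.4% in wild type and 25.5% in KO. With a replicate block 5 members were called in wild type, beside 2409 of the 4542 tested genes. The fits with no filter held every member except Bcl11b, not only the 5 tested ones. They called 5 members in wild type without scaling, beside 16.1% of 14177 genes, and 6 with scaling, beside 1286 genes. Each of these fits called Gata3 and Tcf7, and Hes1 was called only with scaling. Cd7 was called between genotypes in PIR+ cells under all 23 alternatives. Notch1 in PIR- cells went from 1 call to 0 with no filter, with scaling and no filter, with only the 2 groups, with libraries whose markers match and without the globin-rich ones (0 to 1 leaving out each). The Cd7 difference of KO effects went from 1 to 0 with a pseudocount of 0.5, with libraries whose markers match and without the globin-rich ones (0 to 1 leaving out each). The causes were not tested. Subsets of the libraries leave some groups with 1 library, assumed to vary like the others. No called value changed sign.

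Same-numbered libraries did not deviate together (1 of 18 pairs correlated above 0.1, range -0.106 to 0.162), so the numbers were not taken to pair the samples. A replicate block nevertheless raised the number of calls. Between subsets it went from 2015 to 2409 in wild type and from 1158 to 1684 in KO. For KO against wild type it went from 41 to 62 in PIR+ and from 59 to 209 in PIR- cells. The reason was not tested. Low counts limit Gata3, Tcf7, Nrarp and Dtx1 to a few molecules per library.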

Other observations

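Some genes of T and innate lymphoid cells that were too low for the test differed between genotypes in PIR+ cells; those named were chosen after their values were seen. Fitted with no filter, 4 of the 108 list genes that the filter removes were called lower in PIR+ KO than in PIR+ wild type, and 0 were called higher, where 0.367% of all 14177 genes in that fit were called; 3 of the 4 are given here. Lck, the kinase of the T-cell receptor, was at 7.0, 11.8 and 8.1 in PIR+ wild type and at 1.8, 1.0 and 1.5 in PIR+ KO, where it was -2.02 ± 0.45 (log2, limma, adjusted p = 0.0477). Nfil3, a factor of innate lymphoid development, was at 8.9, 18.4 and 12.9 against 3.0, 1.0 and 0.8 (-2.51 ± 0.48, adjusted p = 0.0148). Nkg7, a cytotoxic granule gene, was at 1.3, 7.9 and 2.7 against 0, 0.5 and 0 (-1.89 ± 0.37, adjusted p = 0.0178). In PIR+ wild-type against PIR- wild-type cells these 3 genes rose, by 1.81 for Lck (adjusted p = 0.00784), 3.16 for Nfil3 (adjusted p = 7.72e-05) and 2.08 for Nkg7 (adjusted p = 0.000474).

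Tox and Zbtb7b were high in PIR+ cells of both genotypes. Tox, an HMG-box factor of T and innate lymphoid development, was at 9.5, 9.2 and 16.3 in PIR+ wild type and 8.5, 5.9 and 14.4 in PIR+ KO, with 0 to 1.5 in the 6 PIR- libraries. Zbtb7b, which encodes ThPOK, was at 6.3, 3.3 and 12.9 and at 9.7, 8.8 and 16.7, with 0.5 to 2.3 in PIR- libraries. Both were higher in PIR+ than PIR- cells in both genotypes in that fit (limma, adjusted p = 3.28e-05 and 0.000569 for Tox, 0.0186 and 0.0025 for Zbtb7b, wild type then KO).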
